A study of Mus musculus with 4 samples.

Results

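Imprinted genes are transcribed wholly or mainly from the maternal or the paternal chromosome copy, some of them only in certain tissues. For many of them the copy is chosen by DNA methylation laid down in the germ line. Many imprinted genes lie in clusters that pair protein-coding genes of growth control with long noncoding RNAs, and such clusters are steered by an imprinting control region. In haematopoietic stem cells (HSCs) of the mouse, several of them, among them the Dlk1-Meg3 cluster, the H19-Igf2 pair and Cdkn1c, have been tied to quiescence and self-renewal.

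From a list of 36 known imprinted genes of the mouse, 33 were measured by probe sets that named a single gene, out of 18193 genes measured in all. Each gene was read through its brightest probe set on average. Dio3, Rtl1 and H19 had no such probe set and were not analysed here. The genes were listed by name, but with earlier results of these data known. The choice of the brightest probe set rests on the measured values.

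RNA came from bone marrow HSCs of mice with a fusion of N-myc and mCherry, sorted as lineage-negative, Sca+, Kit+, CD48- and CD150+ cells, uncultured and untreated. Cells with strong and weak mCherry signal made up the N-myc high and N-myc low groups, which both carry the fusion gene. With a sample of mouse 1 and of mouse 2 in each group, there were 2 N-myc high arrays and 2 N-myc low arrays. The labels do not state the strain, age or sex, the promoter of the fusion gene, or whether animals were pooled, so p-values measure only the spread between these samples. Values are RMA log2 probe set intensities, given as mouse 1 and then mouse 2, and a difference is N-myc high minus N-myc low on that scale.

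Mycn, the gene behind the sort, was at 10.48 and 10.39 in N-myc high HSCs, against 9.44 and 9.65 in N-myc low HSCs, a difference of 0.89 (SE, standard error, 0.189), so both N-myc high arrays lay on the side their label gives. In mouse 1 Xist stood at 11.38 in N-myc high HSCs, against 11.10 in N-myc low HSCs, and in mouse 2 at 3.84 and, for N-myc low, 3.70. The Y-linked Eif2s3y was at 8.53 in N-myc high HSCs of mouse 1, against 8.43 in N-myc low HSCs, so whether the mouse 1 samples hold a single animal was not determined, and differences within each mouse are given below. The bioB and bioC hybridisation controls averaged 10.85 and 10.81 in N-myc high HSCs, against 11.05 and 11.67 in N-myc low HSCs. Of 14 HSC markers, 12 were measured and all 12 lay above the background gauge described next, as did all 11 measured granulocyte and monocyte markers.

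Which imprinted genes could be seen in these HSCs was judged against olfactory, vomeronasal and taste receptor genes, which blood cells are not known to use. The 95th percentile of 74 such genes, taken array by array, lay at 4.65 and 4.92 in N-myc high HSCs, against 4.85 and 4.94 in N-myc low HSCs, and served as a gauge of background. The table holds no detection calls, so the gauge is a description and not a test. It also cannot rank genes, because probe sets differ in how brightly they bind.

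By the probe set that stood for each gene, 15 of the 33 imprinted genes (45.5%) lay above the gauge in all 4 arrays, where 60.5% of all genes did. These were Cd81, Gnas, Grb10, Ndn, Ppp1r9a, Impact, Kcnq1ot1, Mest, Tssc4, Igf2r, Sgce, Phlda2, Slc22a18, Rasgrf1 and Kcnq1. A further 6 (Meg3, Igf2, Ascl2, Plagl1, Asb4 and Dcn) were above it in 1 to 3 arrays, where 9.34% of all genes were. The other 12 were above it in no array, as were 30.1% of all genes. By that probe set they were Rian, Mirg, Dlk1, Magel2, Mkrn3, Snrpn, Peg3, Usp29, Zim1, Peg10, Nnat and Nap1l5. The plot of the 33 genes by array shows these classes against the band of the gauge.

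**Figure D1:**
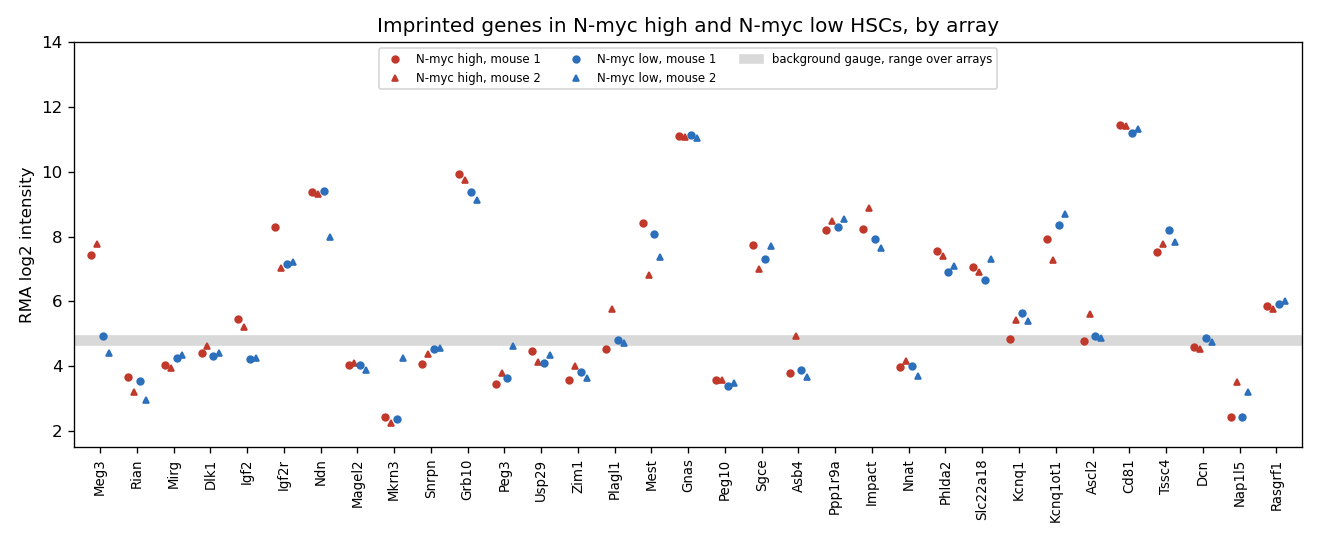
RMA log2 intensity (vertical axis) of the 33 measured imprinted genes (horizontal axis) in each array, with N-myc high in red, N-myc low in blue, circles for mouse 1 and triangles for mouse 2. The grey band is the range of the background gauge over the 4 arrays. Meg3 stands at 7.41 and 7.78 in N-myc high, with 4.92 and 4.39 in N-myc low, while Gnas and Cd81 lie near 11 in all arrays.

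The comparison asked whether imprinted genes differ between HSCs with high and low N-myc. In limma, 0 of the 33 passed a Benjamini-Hochberg adjusted p under 0.05 over all 18193 genes, and 0.0% of all genes did. At an unadjusted p under 0.05, 3 imprinted genes were higher (Meg3, Igf2 and Grb10) and 1 was lower (Kcnq1ot1), against 3.53% and 2.78% of all genes. With the mouse as a block, the labels' pairing of the arrays, the 3 higher genes stayed under 0.05 and Kcnq1ot1 did not, with an unadjusted limma p of 0.0624. Past an unadjusted p of 0.01 with a change of 1.5-fold or more, 2 were higher (Meg3 and Igf2), which is 6.06% of the 33 against 0.742% of all genes, and 0 were lower, against 0.484%. The genes were listed with these results in view, so the shares are a description.

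For 7 of the 33 (21.2%) the lower N-myc high array exceeded the higher N-myc low array, against 15.6% of all genes. These 7 were Meg3, Igf2, Impact, Grb10, Phlda2, Cd81 and Peg10. The N-myc high arrays were both below the N-myc low ones for 6 (18.2%), against 20.8% of all genes, namely Kcnq1ot1, Tssc4, Snrpn, Mirg, Dcn and Rasgrf1. The median difference over the 33 was 0.12, with -0.01 in mouse 1 and 0.10 in mouse 2, and over all genes it was -0.03. As a set, then, the imprinted genes were spread over both directions, with Meg3 at the upper end, as the plot of differences shows.

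**Figure D2:**
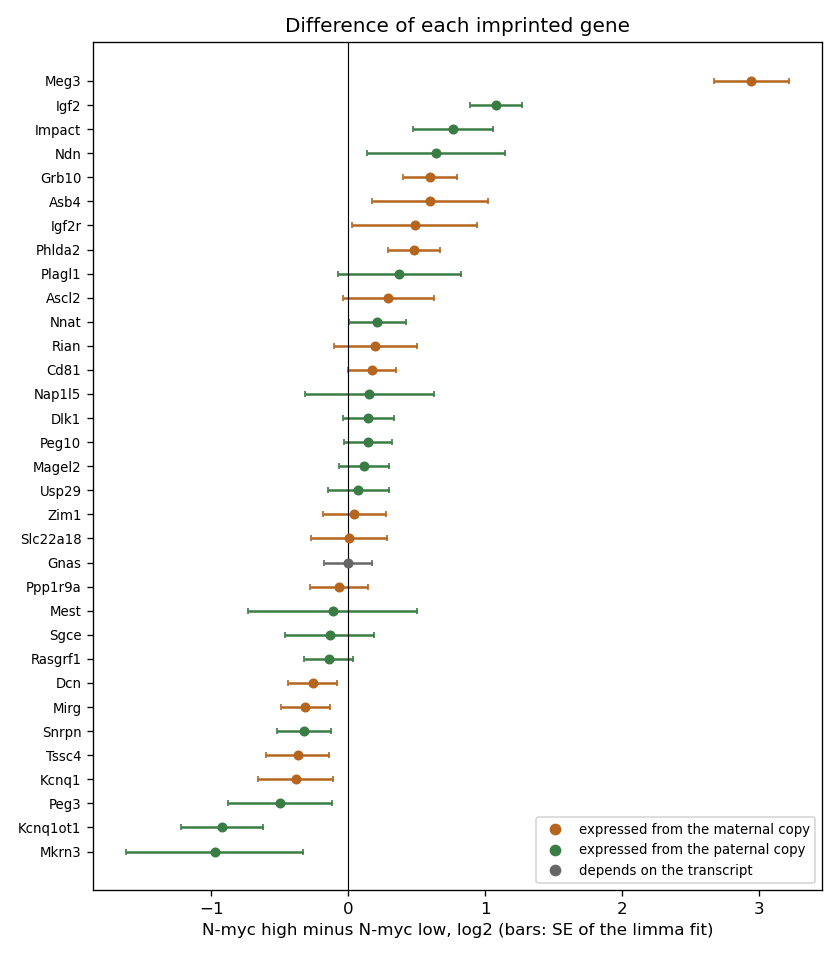
N-myc high minus N-myc low difference (horizontal axis, log2) for each of the 33 imprinted genes, with bars for the standard error of the limma fit and colours for the parental copy each gene is known to be expressed from. Meg3 lies apart at 2.94, Igf2 follows at 1.08, and Kcnq1ot1 and Mkrn3 have the lowest values at -0.92 and -0.97.

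Meg3, a maternally expressed long noncoding RNA of the Dlk1-Dio3 cluster, was at 7.41 and 7.78 in N-myc high HSCs, against 4.92 and 4.39 in N-myc low HSCs. The groups did not overlap, and the N-myc low value of mouse 2 lay under the background gauge while that of mouse 1 lay just above it. The difference was 2.94 with an SE of 0.274, or 7.69-fold; mouse 1 gave 2.50 and mouse 2 gave 3.39 (limma adjusted p = 0.671). Because the N-myc low arrays lay at or near the background gauge, the fold is uncertain. Set against the gauge in the N-myc low array that fell under it, the difference was 2.67 and the fold 6.37. Among 18193 genes Meg3 held rank 1 by size of the higher differences and rank 6 by unadjusted p, with the same limit on its size. A further limit is that its probe set, 1452905_at, was chosen by the mean over all 4 arrays, which its N-myc high values raise. In N-myc low HSCs another Meg3 probe set, 1436057_at, was brighter, with a mean of 5.92 against 4.66, and it differed by 0.01. The ranks therefore partly follow from the choice of probe set.

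The array carries 11 probe sets for Meg3, and they did not read alike. The probe set 1452905_at, given above, and 1439380_x_at were higher in both mice. That second probe set read 6.71 and 8.02 in N-myc high HSCs, against 4.60 and 4.98 in N-myc low HSCs, a difference of 2.58 (SE 0.496; limma adjusted p = 0.775 over all probe sets). Its suffix marks, by the maker's naming, probes that can also match other transcripts.

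In 1452183_a_at only the N-myc high array of mouse 2 stood out, with 5.08 and 7.12 in N-myc high HSCs, against 5.09 and 5.06 in N-myc low HSCs. In 1426758_s_at the same array was highest, with 5.42 and 6.56 in N-myc high HSCs, against 5.23 and 5.59 in N-myc low HSCs, and the groups overlapped.

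The probe set 1436057_at lay above the gauge in all arrays and differed by 0.01, with 5.90 and 5.96 in N-myc high HSCs, against 6.14 and 5.69 in N-myc low HSCs. Likewise 1429257_at differed by -0.11, with 4.73 and 5.37 in N-myc high HSCs, against 5.13 and 5.19 in N-myc low HSCs. In 1436713_s_at the mice went opposite ways, with 5.12 and 4.76 in N-myc high HSCs, against 4.09 and 5.34 in N-myc low HSCs.

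The last 4 probe sets lay under the gauge in all arrays. Of these, 1452906_at, 1428764_at and 1429256_at gave differences of 0.31, 0.36 and -0.05, and 1428765_at gave -0.48 with both N-myc high arrays below both N-myc low arrays. In all, 3 of the 11 were higher without overlap and 1 was lower, where 15.4% and 20.8% of all probe sets were. Averaged over the 11 probe sets, Meg3 differed by 0.67. Which Meg3 transcripts each probe set reads was not determined here.

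**Figure D3:**
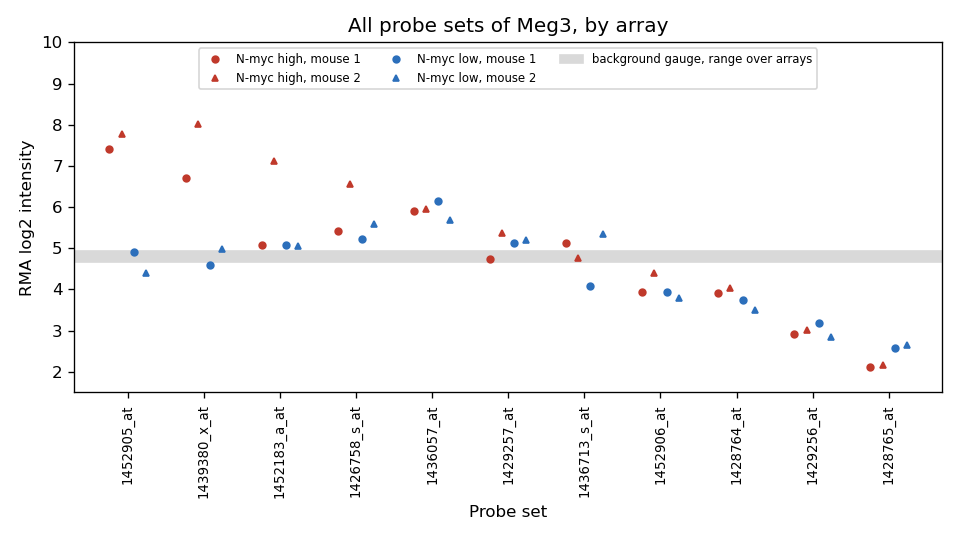
RMA log2 intensity of the 11 Meg3 probe sets in each array, ordered by their N-myc high mean, with N-myc high in red, N-myc low in blue, circles for mouse 1 and triangles for mouse 2, and the grey band for the background gauge. The first 2 probe sets separate the groups by 2.94 and 2.58, and 1428764_at and 1428765_at, both under the gauge, part without overlap by 0.36 and -0.48; in the other 7 the groups overlap.

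RefSeq gives Meg3 2 start windows in build GRCm38.p6, 250 bases before to 50 after each start on the plus strand of chromosome 12. They are printed because Meg3 had the largest difference and because they differ in CG dinucleotides, the sites at which imprints are methylated. Capitals mark CG.
Meg3, first start (chr12:109540746-109541045): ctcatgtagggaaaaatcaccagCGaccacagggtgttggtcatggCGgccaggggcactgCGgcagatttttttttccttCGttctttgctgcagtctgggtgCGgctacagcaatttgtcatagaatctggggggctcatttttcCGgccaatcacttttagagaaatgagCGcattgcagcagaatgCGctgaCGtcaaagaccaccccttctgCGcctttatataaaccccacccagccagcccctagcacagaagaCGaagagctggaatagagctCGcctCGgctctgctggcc
Meg3, downstream start (chr12:109545148-109545447): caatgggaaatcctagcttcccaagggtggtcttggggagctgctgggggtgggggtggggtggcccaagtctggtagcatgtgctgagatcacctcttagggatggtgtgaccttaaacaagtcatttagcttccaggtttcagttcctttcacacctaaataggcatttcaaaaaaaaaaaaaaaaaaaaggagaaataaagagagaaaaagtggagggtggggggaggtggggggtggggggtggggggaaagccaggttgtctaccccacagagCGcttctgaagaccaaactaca
The first window holds 13 CG dinucleotides, a TATATAA box from its base 224, and GCGGCA from base 61, which is TGCCGC on the other strand, the core bound by the imprint guardian ZFP57. The downstream window holds 1 CG and neither motif. The E-box CACGTG, the preferred site of MYC proteins, is in neither window. A match or its absence describes these letters alone, and the arrays do not tell from which start Meg3 was read.

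The neighbours of Meg3 were dim, and their probe sets disagreed. Rian, the noncoding RNA next in line that hosts small RNAs, was at 3.67 and 3.19 in N-myc high HSCs, against 3.52 and 2.94 in N-myc low HSCs, a difference of 0.20 (SE 0.303), by its brightest probe set. Its probe set 1427580_a_at read 4.75 and 3.36 in N-myc high HSCs, against 2.29 and 2.38 in N-myc low HSCs, a difference of 1.72 (SE 0.501; limma adjusted p = 0.775 over all probe sets) without overlap. Only the N-myc high array of mouse 1 was above the gauge there. Mirg, the microRNA-containing gene further along, was at 4.04 and 3.92 in N-myc high HSCs, against 4.23 and 4.35 in N-myc low HSCs, a difference of -0.31 (SE 0.180), while 1457030_at gave 0.67 without overlap. Dlk1, the paternally expressed Notch-ligand-like protein at the other end, was at 4.40 and 4.60 in N-myc high HSCs, against 4.30 and 4.41 in N-myc low HSCs, and its other probe set 1449939_s_at gave 0.80 without overlap. Apart from the Rian value just named, the probe sets of these 3 genes lay under the gauge in all 4 arrays. RefSeq places 58 microRNA hairpins between the starts of Meg3 and Dio3, and none of their mature products was measured.

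Igf2, the paternally expressed insulin-like growth factor, was at 5.44 and 5.20 in N-myc high HSCs, against 4.22 and 4.26 in N-myc low HSCs. Both N-myc high arrays were above the gauge and both N-myc low arrays under it, so against the gauge N-myc high was at least 1.34-fold higher. The difference was 1.08 (SE 0.189), with 1.22 in mouse 1 and 0.94 in mouse 2 (limma adjusted p = 0.744). The other probe set of Igf2 gave 3.72 and 3.45 in N-myc high HSCs, against 2.95 and 2.98 in N-myc low HSCs, again without overlap but under the gauge throughout.

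Igf2 has 4 start windows in RefSeq, on the minus strand of chromosome 7. The windows with the most and the fewest CG dinucleotides are shown to set beside those of Meg3, with CG in capitals.
Igf2, CG-rich start (chr7:142658755-142659054): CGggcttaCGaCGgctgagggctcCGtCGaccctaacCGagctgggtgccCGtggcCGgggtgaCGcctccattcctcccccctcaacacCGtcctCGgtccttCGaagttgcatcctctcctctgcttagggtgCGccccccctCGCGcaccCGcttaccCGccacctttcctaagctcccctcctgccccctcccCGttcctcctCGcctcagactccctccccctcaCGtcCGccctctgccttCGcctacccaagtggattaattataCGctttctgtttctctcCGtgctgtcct
Igf2, CG-poor start (chr7:142666767-142667066): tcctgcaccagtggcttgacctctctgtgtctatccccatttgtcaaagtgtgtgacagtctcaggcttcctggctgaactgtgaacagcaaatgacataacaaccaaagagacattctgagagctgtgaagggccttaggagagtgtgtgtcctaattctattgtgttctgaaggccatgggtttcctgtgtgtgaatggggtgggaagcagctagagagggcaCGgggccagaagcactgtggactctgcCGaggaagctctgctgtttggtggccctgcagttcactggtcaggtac
They hold 24 and 2 CG dinucleotides, and neither CACGTG nor TGCCGC on either strand. The Igf2 window with 14 CG dinucleotides, not shown, has 1 match to TGCCGC, counted over both strands. The Igf2 window with 7, also not shown, has neither motif.

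Igf2r, the receptor that removes IGF2 and is expressed from the maternal copy, was at 8.29 and 7.03 in N-myc high HSCs, against 7.14 and 7.20 in N-myc low HSCs. Its N-myc high array of mouse 1 stood above the other 3, the mice went opposite ways (1.15 and -0.17), and the mean difference was 0.49 (SE 0.455). Grb10, an adaptor that dampens insulin and IGF receptor signalling, was at 9.92 and 9.76 in N-myc high HSCs, against 9.36 and 9.12 in N-myc low HSCs. Its groups did not overlap, and the difference was 0.60 (SE 0.197; limma adjusted p = 0.779), but its other probe sets gave 0.22 and -0.09. Plagl1, a zinc finger factor that regulates other imprinted genes, was at 4.51 and 5.75 in N-myc high HSCs, against 4.80 and 4.72 in N-myc low HSCs, so 1 array of its brightest probe set was above the gauge. Its probe set 1438588_at was near the gauge throughout, above it in 3 arrays, with a difference of -0.10.

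The Kcnq1ot1 domain holds a paternally expressed noncoding RNA that silences its neighbours on the same chromosome in other tissues. Kcnq1ot1 was at 7.93 and 7.29 in N-myc high HSCs, against 8.36 and 8.70 in N-myc low HSCs. The groups did not overlap, and the difference was -0.92 (SE 0.299), with -0.42 in mouse 1 and -1.42 in mouse 2 (limma adjusted p = 0.779). Its other 5 probe sets all had the same sign, from -0.94 to -0.13, and the 4 brightest gave between -0.94 and -0.77. Kcnq1ot1 runs across Kcnq1 in the opposite direction, and the labels do not give the strand that each probe set reads.

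Among the protein-coding genes of that domain, Phlda2, a placental growth regulator, was at 7.55 and 7.40 in N-myc high HSCs, against 6.91 and 7.08 in N-myc low HSCs, a difference of 0.48 (SE 0.188) without overlap. Cd81, a tetraspanin, was at 11.44 and 11.42 in N-myc high HSCs, against 11.20 and 11.31 in N-myc low HSCs, a difference of 0.17 no larger than its SE of 0.176. Tssc4 was at 7.53 and 7.78 in N-myc high HSCs, against 8.21 and 7.84 in N-myc low HSCs, a difference of -0.37 (SE 0.228). The groups stood apart for these 3 genes, with N-myc high above N-myc low for Phlda2 and Cd81 and below it for Tssc4.

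The potassium channel gene Kcnq1 itself was at 4.84 and 5.42 in N-myc high HSCs, against 5.64 and 5.38 in N-myc low HSCs. The transporter gene Slc22a18 was at 7.07 and 6.91 in N-myc high HSCs, against 6.67 and 7.30 in N-myc low HSCs, a difference of 0.01. Ascl2, a basic helix-loop-helix factor, was at 4.77 and 5.61 in N-myc high HSCs, against 4.93 and 4.86 in N-myc low HSCs, close to the gauge. The groups of all 3 overlapped.

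In the Snrpn cluster, known from Prader-Willi syndrome, Ndn was above the gauge; Snrpn was so only in probe sets shared with Snurf, which entered no gene value. Ndn encodes necdin, a growth suppressor of the MAGE family. It was at 9.37 and 9.30 in N-myc high HSCs, against 9.40 and 7.98 in N-myc low HSCs, so 3 arrays lay close together and the N-myc low array of mouse 2 stood below them. The mean difference of 0.64 (SE 0.504) became -0.07 without that array. Of its 8 probe sets, 1435382_at and 1415923_at were above the gauge and higher in both mice without overlap, with differences of 0.52 and 0.86. Under the gauge, 1438978_x_at gave 0.31 and 1456575_at -0.16, both without overlap, and the suffix of the brightest set marks probes that can match other transcripts. Magel2, Mkrn3 and Snrpn lay between 2.24 and 4.56, and in Mkrn3 the N-myc low array of mouse 2 was again the odd array, at 4.23 with the others between 2.24 and 2.42. That array also has the brightest hybridisation controls, and their part in these values was not tested.

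Impact, an inhibitor of the amino acid sensor kinase GCN2, was at 8.23 and 8.87 in N-myc high HSCs, against 7.93 and 7.64 in N-myc low HSCs. The difference of 0.77 (SE 0.293) was larger in mouse 2 (1.24) than in mouse 1 (0.29), and its other probe sets gave -0.44 and -0.10. Gnas, the stimulatory G protein alpha subunit, was at 11.10 and 11.09 in N-myc high HSCs, against 11.15 and 11.05 in N-myc low HSCs, a difference of 0.00 (SE 0.175).

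Mest, an alpha/beta hydrolase fold protein, was at 8.42 and 6.80 in N-myc high HSCs, against 8.09 and 7.35 in N-myc low HSCs. Both Mest values of mouse 1 lay above both of mouse 2. Other genes also parted by mouse, Rian and Gnas in the same direction and Ppp1r9a in the opposite one. The share of all genes that did so was not counted. Sgce, epsilon-sarcoglycan, was at 7.73 and 7.005 in N-myc high HSCs, against 7.30 and 7.71 in N-myc low HSCs. Ppp1r9a, the actin-binding neurabin, was at 8.21 and 8.49 in N-myc high HSCs, against 8.30 and 8.54 in N-myc low HSCs, by its brightest probe set.

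The 5 probe sets of Ppp1r9a disagreed. In 1458942_at it was at 5.26 and 5.21 in N-myc high HSCs, against 6.27 and 5.90 in N-myc low HSCs, a difference of -0.85 (SE 0.219; limma adjusted p = 0.775 over all probe sets). The probe sets 1457603_at and 1432037_at also kept the groups apart, with differences of -0.55 and 0.59. Among the 33 genes, 21 had more than 1 probe set, and 13 of these had another of opposite sign.

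Rasgrf1, a Ras exchange factor, was at 5.86 and 5.75 in N-myc high HSCs, against 5.91 and 5.99 in N-myc low HSCs, a difference of -0.14 below its SE of 0.178. Asb4, an ankyrin repeat protein, was at 3.78 and 4.93 in N-myc high HSCs, against 3.86 and 3.65 in N-myc low HSCs, so a single N-myc high array reached the gauge. Dcn, the matrix proteoglycan decorin, was at 4.57 and 4.52 in N-myc high HSCs, against 4.87 and 4.74 in N-myc low HSCs, at or under the gauge. The 6 genes under the gauge not yet described (Peg3, Usp29, Zim1, Peg10, Nnat and Nap1l5) ranged from 2.42 to 4.60, and their differences from -0.50 to 0.21.

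By the parental copy known to be expressed, 4 of 15 maternally expressed genes were higher without overlap and 3 lower, with a median difference of 0.17. Of 17 paternally expressed genes, 3 were higher and 3 lower, with a median of 0.12. Over all genes 15.6% were higher and 20.8% lower without overlap. Array signals cannot tell which copy was transcribed. Across mice, 9 of the 33 genes were higher in both and 8 lower in both, against 23.2% and 29.7% of all genes, and the other 16 did not keep a sign.

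**Figure D4:**
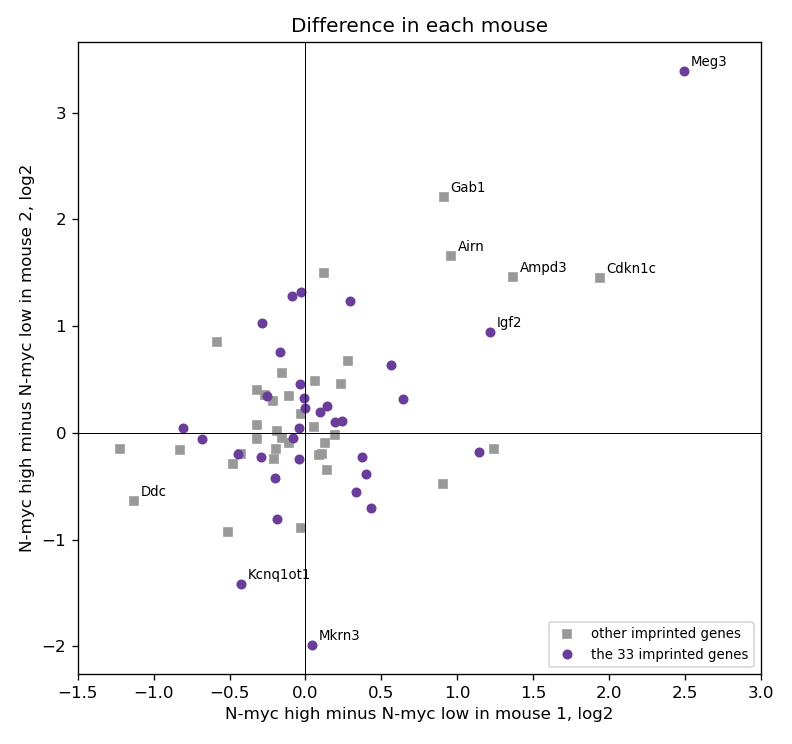
Difference between N-myc high and N-myc low (log2) in mouse 1 (horizontal axis) and in mouse 2 (vertical axis), with circles for the 33 imprinted genes and squares for 37 other imprinted genes. Meg3 lies at 2.50 and 3.39, Igf2 at 1.22 and 0.94, and Cdkn1c, Ampd3, Gab1 and Airn are the other labelled genes that were higher in both mice.

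A second list of 45 imprinted genes outside the first, of which 37 were measured, gave a median difference of 0.04. In it, 7 genes were higher without overlap (18.9%, against 15.6% of all genes) and 9 lower (24.3%, against 20.8%), and 0 passed the adjusted threshold. At an unadjusted p under 0.05, 4 were higher (Cdkn1c, Gab1, Ampd3 and Airn; 10.8%, against 3.53% of all genes) and 1 was lower (Ddc; 2.70%, against 2.78%).

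Cdkn1c, the cyclin-dependent kinase inhibitor of the Kcnq1ot1 domain, was at 7.03 and 7.32 in N-myc high HSCs, against 5.09 and 5.87 in N-myc low HSCs, a difference of 1.69 (SE 0.325; limma adjusted p = 0.744). Its signal, from 1 probe set, went opposite to that of Kcnq1ot1 in both mice. The other genes of the domain described above were mixed. Phlda2 and Cd81 were higher in both mice, Tssc4 was lower in both, and Slc22a18, Kcnq1 and Ascl2 did not keep a sign. A link between Cdkn1c and Kcnq1ot1 was not tested. Gab1, a docking protein of receptor tyrosine kinases, was at 7.29 and 7.79 in N-myc high HSCs, against 6.38 and 5.58 in N-myc low HSCs, a difference of 1.56 (SE 0.358), and its other probe sets gave 0.68 and 2.35. Ampd3, an AMP deaminase, was at 7.04 and 7.72 in N-myc high HSCs, against 5.67 and 6.27 in N-myc low HSCs, a difference of 1.41 (SE 0.346). For all 3 genes the groups stood apart and all 4 arrays were above the gauge.

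Airn, the paternally expressed noncoding RNA that runs against Igf2r, was at 6.82 and 6.32 in N-myc high HSCs, against 5.87 and 4.67 in N-myc low HSCs, a difference of 1.31 (SE 0.465). Its other 4 probe sets gave 0.11 to 1.65, all of the same sign. Ddc, the aromatic amino acid decarboxylase next to Grb10, was at 4.07 and 3.92 in N-myc high HSCs, against 5.20 and 4.55 in N-myc low HSCs, with 1 array above the gauge.

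**Figure D5:**
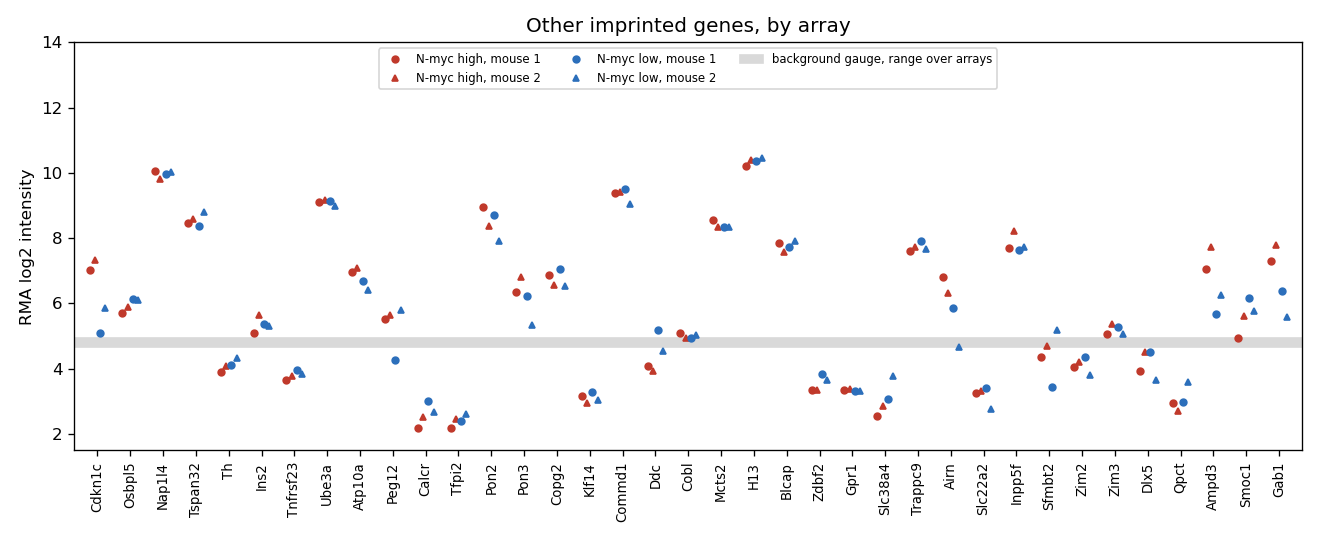
RMA log2 intensity of the 37 other imprinted genes in each array, with N-myc high in red, N-myc low in blue, circles for mouse 1 and triangles for mouse 2, and the grey band for the background gauge. Cdkn1c, Ampd3 and Gab1 show both N-myc high arrays above both N-myc low arrays, with differences of 1.69, 1.41 and 1.56.

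Genes from a list of imprint maintenance factors were seen in these cells. The list also holds Tet1, Tet2 and Tet3, enzymes that act in the loss of DNA methylation, so its values do not describe maintenance alone. Of its 22 measured genes, 21 were above the gauge in all arrays (95.5%, against 60.5% of all genes). Among them were the methyltransferase Dnmt1 and its partner Uhrf1, the corepressor Trim28 and the zinc finger proteins Zfp57 and Zfp445. The median difference was -0.11, with 1 gene higher (4.55%, against 15.6% of all genes) and 4 lower (18.2%, against 20.8%) without overlap. Setdb1, the histone methyltransferase that works with Trim28, was at 8.07 and 7.39 in N-myc high HSCs, against 8.60 and 8.68 in N-myc low HSCs, a difference of -0.91 (SE 0.284; limma adjusted p = 0.779), while its other probe sets gave -0.35 and 1.09. Setdb1 was the only gene of this list at an unadjusted p under 0.05.

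Of 19 measured genes around insulin-like growth factor signalling, 5 were higher (26.3%, against 15.6% of all genes) and 3 lower (15.8%, against 20.8%) without overlap, with a median of 0.01. Igf1, the second ligand, was at 6.88 and 5.97 in N-myc high HSCs, against 5.43 and 5.22 in N-myc low HSCs, a difference of 1.10 (SE 0.355; limma adjusted p = 0.779), and its other 3 probe sets were also positive. Igf1r, the receptor of both ligands, was at 9.26 and 9.45 in N-myc high HSCs, against 9.15 and 9.55 in N-myc low HSCs, a difference of 0.00.

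Markers of other cells also differed in level between the fractions. The 11 granulocyte and monocyte markers summed on the linear scale to 35438 and 31714 in N-myc high HSCs, against 38785 and 38880 in N-myc low HSCs. Of them 1 was higher and 8 were lower without overlap, against 15.6% and 20.8% of all genes. Among 7 megakaryocyte markers, 2 were higher and 4 lower without overlap, and among 6 erythroid markers 2 and 3. Among 8 B cell markers it was 2 and 1, and among 9 T and NK cell markers 1 and 2. Summed on the linear scale, 12 HSC markers came to 7326 and 8554 in N-myc high HSCs, against 6537 and 6755 in N-myc low HSCs. The 7 multipotent progenitor markers came to 3760 and 4381 in N-myc high HSCs, against 7366 and 6397 in N-myc low HSCs. Without overlap, 5 HSC markers were higher and 1 lower, and 1 progenitor marker was higher and 6 lower. Cd48, whose protein the sort selects against, read 7.42 and 7.11 in N-myc high HSCs, against 9.89 and 9.07 in N-myc low HSCs. The 10 macrophage markers summed to 815 and 787 in N-myc high HSCs, against 514 and 419 in N-myc low HSCs, with 6 of them above the gauge in all arrays and Adgre1, Marco and Timd4 under the gauge in all arrays. Of these 10, C1qb and Mrc1 were higher and Siglec1 and Marco lower without overlap, and C1qb alone read 8.24 and 8.48 in N-myc high HSCs, against 5.76 and 5.64 in N-myc low HSCs. The 10 dendritic cell markers, of which 6 were above the gauge in all arrays, summed to 2829 and 2566 in N-myc high HSCs, against 1220 and 1009 in N-myc low HSCs. The 6 that were higher without overlap were Cd74, H2-Aa, H2-Ab1, H2-Eb1, Zbtb46 and Flt3, the last also a progenitor marker. Itgax, Siglech, Xcr1 and Batf3 overlapped. For Zbtb46 this holds only for its brightest probe set, with a difference of 1.64 and both N-myc low arrays under the gauge. The remaining 3 probe sets of Zbtb46 were lower on average in N-myc high HSCs, by differences from -0.69 to -0.06. Of 9 endothelial markers, 3 were higher and 1 lower without overlap, and 5 of the 9 were above the gauge in all arrays. The part of other cell types, progenitors and endothelial cells among them, in the values of Meg3, Igf2 and Cdkn1c was not tested. In such bulk samples, fewer cells of a type and less RNA per cell cannot be told apart.

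Stromal markers bear on Igf2 and Dcn, which stromal cells use. Of 11, 6 lay under the gauge in all arrays (Cxcl12, Lepr, Pdgfra, Col3a1, Lum and Postn), and the list summed to 1593 and 1108 in N-myc high HSCs, against 1005 and 960 in N-myc low HSCs. Pdgfrb alone read 9.63 and 7.36 in N-myc high HSCs, against 8.05 and 8.25 in N-myc low HSCs, and its groups overlapped. Of the 11, 1 was higher and 0 were lower without overlap, where 15.6% and 20.8% of all genes were. That gene, Bgn, was at 9.12 and 9.38 in N-myc high HSCs, against 8.72 and 8.69 in N-myc low HSCs. Its difference was 0.54, and its other probe sets gave 0.48 and 0.57. The part of stromal cells in the values of Igf2 and Dcn was not tested.

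Promoter windows from RefSeq (GRCm38.p6) were used for 29 of the 36 listed genes, 44 windows in all. Chromosome 18, where Impact lies, was left out of these 44 windows but not of the windows they are set against. The median of the 44 was 14.5 CG dinucleotides, against 16 for windows of genes on the array and 7 for all 32851 windows. TGCCGC on either strand was in 10 of the 44 (22.7%), against 16.2% of windows of genes on the array and 11.6% of all. The palindrome CACGTG was in 3 (6.82%), those of Ppp1r9a, Plagl1 and Igf2r, against 8.72% and 7.15%. Several genes have overlapping windows, so windows are not independent, and TGCCGC itself holds a CG.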

How the data were processed

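The authors deposited RMA log2 probe set intensities for 4 arrays, and the submitters' processing notes name RMA, affy and limma without versions. Because RMA brings all arrays to the same distribution, a shift common to all genes cannot be seen and no RNA amount can be read from the values. Per the labels' protocols, 5 ng of RNA was amplified and labelled with Ovation reagents, and such small inputs add spread for dim transcripts. No source used here gives the genome build or chip definition, and detection calls were not used.

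Of 45101 probe sets, 34945 named 1 gene in the platform annotation, 932 named several, 9160 were unnamed here and 64 were controls. Only those naming 1 gene were used, which gave 18193 genes. N-myc high was set against N-myc low with limma 3.58.1 (lmFit, eBayes) under R 4.3.3, with Benjamini-Hochberg adjustment over all genes. On simulated data the fit recovered 0.0% of planted changes of 1 or 2 log2 units at an adjusted p under 0.05. It recovered 79.8% of planted changes of 3 log2 units, with 7.8 false calls on average. A gene that did not pass is therefore not shown to be unchanged. The number of arrays limits the precision, and an exact two-sided permutation test of 2 against 2 arrays cannot go below p = 0.333. Same-numbered arrays carry the name of the same mouse in the labels, and their deviations from the group means correlated at r = 0.0492 across genes. Alternatives were the mean of probe sets, every probe set, no dim genes, equal medians, an intensity trend, the mouse as a block and each array left out. The members and lists were chosen with earlier results of these data known. Values in all arrays are given for genes above the gauge in at least 1 array, at an unadjusted p under 0.05 or in the Dlk1-Dio3 cluster, and list genes are named at an unadjusted p under 0.05 or, chosen after their values were seen, for their known role.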

Additional observations from a re-analysis of the deposited data

How the results depend on the processing

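No imprinted gene passed the adjusted threshold in any alternative, and of 32 named differences 20 kept their sign in all alternatives run, Meg3, Igf2, Grb10, Kcnq1ot1 and Cdkn1c among them. The groups of these named genes did not overlap, so leaving out an array could not turn their sign. The trend, the block, every probe set and the removal of dim genes leave a difference unchanged. Only equal medians and, for genes with several probe sets, their mean could have turned it. The removal of dim genes dropped Meg3 and Igf2, so the counts without dimmer genes below leave out both. With the mouse as a replicate block 0 of 33 passed and the counts without overlap were unchanged, but genes lower at an unadjusted p under 0.05 numbered 0, since Kcnq1ot1 was at 0.0624. That count, added after seeing the data, was also 0 without the mouse 2 array of N-myc high or of N-myc low, 0 to 2 over arrays left out and 3 over every probe set. Genes higher at that p numbered 2 to 5 with an array left out, 6 over every probe set and 1 without dimmer genes. Meg3 ranged from 0.67 over the mean of its probe sets to 3.21, and from 2.68 to 3.21 with an array left out. Genes at an unadjusted p under 0.01 and 1.5-fold numbered 1 with the mean of probe sets, 0 without dimmer genes and 1 to 3 with an array left out. Genes without overlap numbered 19 higher and 13 lower over every probe set, where more features were counted, and 4 and 2 without dimmer genes, where fewer were. With an array left out they numbered 10 to 15 higher and 9 to 13 lower, since fewer arrays overlap less often. The median difference was 0.0056 without dimmer genes.

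The sign turned for 12 named differences, among them those of Ndn and Igf2r, which lay well above the gauge. With the mean of probe sets, Mirg was 0.18, Sgce 0.0553 and Rasgrf1 0.0485, and with equal medians Gnas was -0.0508 and Slc22a18 -0.0455. With an array left out, ranges crossed 0 for Rian (-0.0920 to 0.49), Igf2r (-0.15 to 1.12), Ndn (-0.0661 to 1.35), Plagl1 (-0.24 to 0.99), Mest (-0.92 to 0.70), Gnas (-0.0493 to 0.0498), Sgce (-0.50 to 0.23), Ppp1r9a (-0.21 to 0.0731), Slc22a18 (-0.31 to 0.32) and Ascl2 (-0.13 to 0.72). The cause was not tested. The count above the gauge was 13 to 19 of 33 over the gauges and arrays tried.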

Other observations

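Probe sets that name several genes entered no gene value. A probe set annotated to both Mir675 and H19 read 3.92 and 3.80 in N-myc high HSCs, against 2.82 and 4.83 in N-myc low HSCs, under the gauge in all arrays. Of the 6 probe sets annotated to both Snurf and Snrpn, the brightest read 6.69 and 6.73 in N-myc high HSCs, against 6.72 and 6.89 in N-myc low HSCs, above the gauge in all arrays, unlike the probe set that names Snrpn alone.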
